A study of Mus musculus with 12 samples.

Results

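The Rab GTPases of vesicle traffic were followed here through pregnancy and lactation in mouse mammary luminal and basal cells. They were taken as every protein-coding gene of the deposited count table whose mouse symbol is Rab followed by a number, with an optional subtype letter, which gave 59 of the 27179 genes in the table. Each of the 59 was placed by its best known compartment: 9 between endoplasmic reticulum (ER) and Golgi, 6 at the Golgi, 8 on secretory vesicles, 8 in polarised delivery to the plasma membrane, 8 at recycling endosomes, 7 at early endosomes, 8 at late endosomes, lysosomes and autophagosomes, 3 at lysosome-related organelles and 2 at the primary cilium. Many Rabs act at more than one of these places, so the grouping is an ordering aid.

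The cells were sorted by flow cytometry from glands of untreated wild-type FVB/N females. Luminal cells are the milk-producing inner layer of the ducts and alveoli, and basal cells include the contractile myoepithelium around them. Each population was taken from virgin mice, from mice at day 18.5 of pregnancy and from mice at day 2 of lactation. With 2 libraries each this gave 6 groups and 12 libraries, and the series' design text gives 2 mice per stage. The run names put all luminal libraries in lane 1 and all basal libraries in lane 2, so cell type and lane cannot be told apart. A sorted population is a mixture, and in bulk RNA fewer cells of a type and less RNA per cell cannot be told apart.

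In units of 1000000 counts, library totals ran from 20.02 to 24.72. The 8 milk protein genes took 0.586% and 0.734% of the counts in the luminal virgin libraries, 16.3% and 19.0% in the luminal pregnant libraries and 46.6% and 45.2% in the luminal lactating libraries, against at most 0.619% in basal libraries. Levels are therefore given as counts per 1000000 after TMM scaling (CPM), which sets libraries on the level of most genes and not on the total. In the luminal lactating against virgin comparison the median log2 change of all 15969 tested genes was -0.15 after TMM scaling, -0.63 with libraries scaled by their total without the milk protein genes, and -1.51 with libraries scaled by their total alone. A small log2 rise in luminal cells thus has a direction that depends on the scaling, and this is said where it happened. The summed CPM of 8 luminal markers (Krt8, Krt18, Epcam and others) was 5172 to 14705 in luminal and 1638 to 2386 in basal libraries. The sum of 8 basal markers (Krt5, Krt14, Acta2 and others) was 56.5 to 397 in luminal and 14610 to 49949 in basal libraries.

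Rab proteins are small GTPases that mark membranes. Exchange factors (GEFs) load a Rab with GTP on its membrane, the active Rab recruits effectors such as tethers and motor adaptors, and GTPase-activating proteins (GAPs) switch it off. Guanine nucleotide dissociation inhibitors (GDIs) and escort proteins keep the lipid-anchored Rab soluble between rounds. A lactating luminal cell sends casein through the ER, Golgi and secretory vesicles to its apical surface and releases milk fat as lipid droplets wrapped in plasma membrane.

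Of the 59 genes, 55 had enough counts to be tested. Rab3c had 0 counts in every library, Rab33a reached at most 3 counts in a library, and Rab39 and Rab9b reached at most 4 each. Per kilobase of the deposited gene length, the highest mean levels in luminal virgin cells were those of Rab7 (95.6 CPM per kb), Rab1a (88.9), Rab18 (71.6), Rab25 (71.0) and Rab15 (70.1). In luminal lactating cells the order was Rab18 (445 CPM per kb), Rab1a (211), Rab7 (146), Rab1b (95.8) and Rab15 (76.2). In basal lactating cells Rab20 was highest (153 CPM per kb), followed by Rab7 (90.9) and Rab18 (88.6). The deposited length of Rab7 is only 624 bases and that of Rab20 only 722 bases, which raises their values per kilobase.

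The make-up of the Rab transcript pool does not depend on how libraries are scaled. ER to Golgi Rabs held 24.1% and 24.5% of the summed Rab counts per kb in the luminal virgin libraries, 29.5% and 30.4% in the luminal pregnant libraries and 47.8% and 51.2% in the luminal lactating libraries. The 6 basal libraries lay between 21.5% and 23.5%. The 3 luminal stages did not overlap, and every luminal library lay above every basal one. The gap between virgin luminal and basal cells depends on the division by length. As a share of plain Rab counts, ER to Golgi Rabs held 26.6% and 26.8% in luminal virgin and 26.9% and 26.5% in basal virgin libraries. By that measure the luminal stages still did not overlap, with 32.9% and 33.6% at pregnancy and 51.3% and 54.6% at lactation. Rab18 alone took 23.4% and 27.8% of the pool in the luminal lactating libraries, against 6.17% to 7.78% in the other luminal libraries. With Rab18 left out, the ER to Golgi share was 19.1% and 19.2%, then 24.8% and 24.5%, then 31.9% and 32.5% at the 3 luminal stages in order, and 16.1% to 18.1% in basal libraries. Recycling endosome Rabs held 23.7% and 23.9% of the pool in luminal virgin, 20.4% and 21.1% in luminal pregnant and 14.7% and 13.6% in luminal lactating libraries. A share can fall because other members rise. The summed Rab CPM was 2388 and 2463, then 2877 and 2993, then 3657 and 3796 at the luminal stages in order. By level, 1 of the 8 recycling Rabs was higher and 1 lower in luminal pregnant than virgin cells. In that comparison 21.8% of all genes were higher and 24.1% lower. The recycling median log2 change was -0.01 there and -0.38 at lactation against virgin, against -0.04 and -0.15 over all genes. Early endosome Rabs held 10.5% to 18.4% of the pool in luminal and 27.6% to 30.9% in basal libraries. With 2 libraries against 2, a two-sided exact permutation test of a share could not give a p below 0.333, so none was run. All 59 genes together took 0.329% to 0.371% of the counts outside the milk protein genes in luminal libraries and 0.281% to 0.319% in basal libraries.

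**Figure D1:**
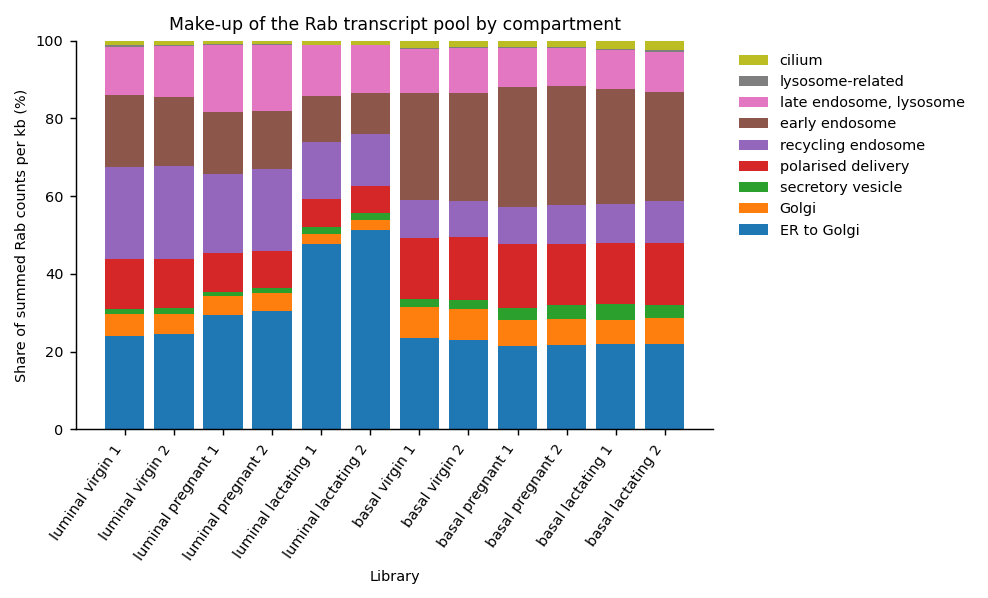
Share of summed Rab counts per kb (y axis, percent) in each of the 12 libraries (x axis), coloured by compartment. The ER to Golgi share is 47.8% and 51.2% in the 2 luminal lactating libraries and lies between 21.5% and 23.5% in the 6 basal libraries.

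In luminal cells, pregnancy against virgin moved 30 of the 55 tested Rabs past an adjusted p of 0.05 (54.5%), 16 of them up and 14 down. Of all tested genes 45.9% were called in this comparison, 21.8% up and 24.1% down. Lactation against pregnancy moved 30 (12 up, 18 down), also 54.5%, against 48.3% of all genes (23.7% up, 24.6% down). Lactation against virgin moved 40 (16 up, 24 down), or 72.7%, against 60.2% of all genes (26.7% up, 33.5% down). The luminal median log2 change over the 55 Rabs was 0.08, -0.11 and -0.32 in these 3 comparisons, and over all genes -0.04, 0.00 and -0.15. The 3 comparisons share libraries pairwise. Scaling by total without the milk protein genes gave 9 up and 19 down, 6 up and 23 down, and 11 up and 33 down, and scaling by total alone gave 5 up and 30 down, 1 up and 38 down, and 3 up and 46 down. With RLE size factors the lactating against pregnant split was 16 up and 14 down, and DESeq2 gave 14 up and 12 down.

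**Figure D2:**
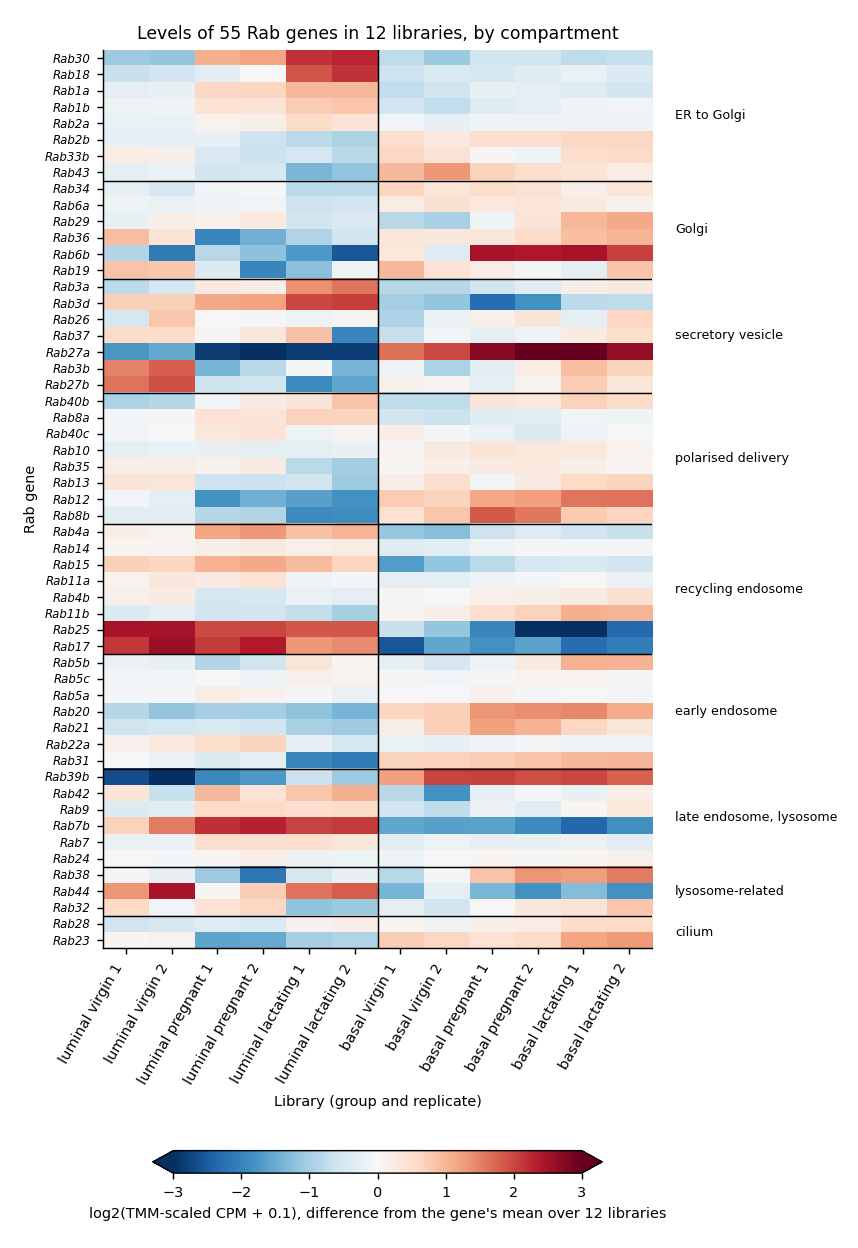
Levels of the 55 tested Rab genes (rows, grouped by compartment) in the 12 libraries (columns). Colour is log2(TMM-scaled CPM + 0.1) minus the gene's mean over the 12 libraries. Rab30 and Rab18 are highest in the luminal lactating libraries, and Rab27a is low in every luminal library.

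The largest luminal rises among the Rabs at lactation against virgin were those of Rab30 and Rab18. Both were placed in the ER to Golgi list, though Rab30 is known from the Golgi. Of the 8 tested ER to Golgi members, 5 were higher and 3 lower in luminal lactating than in luminal virgin cells, with a median log2 change of 0.80 against -0.15 over all genes. In this comparison 26.7% of all genes were higher and 33.5% lower. Scaling by total alone gave 2 higher and 5 lower. Rab18, which sits on the ER and on lipid droplets, had 155 and 168 CPM in the luminal virgin libraries, 192 and 248 in the luminal pregnant libraries and 900 and 1107 in the luminal lactating libraries. The lactating libraries stood apart from all others, and the 6 basal libraries lay at 158 to 215 CPM. In luminal cells Rab18 was 4.56-fold higher at lactation than at pregnancy (log2 change 2.19 ± 0.15 SE, adjusted p = 3.68e-07), and scaling by total alone left a log2 change of 1.34. The earlier step, pregnant against virgin, was 0.44 ± 0.15 (adjusted p = 0.027). Scaling by total alone put this Rab18 step at -0.07, and it lost its call without luminal pregnant replicate 2 (0.24, adjusted p = 0.27) and without either luminal virgin library.

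Rab30, a Golgi Rab placed here in the ER to Golgi list, had 6.17 and 5.87 CPM in luminal virgin, 28.0 and 30.3 in luminal pregnant and 59.5 and 65.3 in luminal lactating libraries, with no overlap between stages. It took 1.81% and 1.92% of the Rab pool per kb in the luminal lactating libraries. It was 10.4-fold higher at lactation than in virgin luminal cells (log2 change 3.37 ± 0.14, adjusted p = 1.58e-09), and 2.01 with libraries scaled by total alone. Of that rise, 2.27 ± 0.14 came by pregnancy and 1.10 ± 0.13 after it, and the second Rab30 step was 0.24 (adjusted p = 0.145) with libraries scaled by total alone. Basal libraries held 6.06 to 8.90 CPM of Rab30 at all stages.

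Rab1a and Rab1b, the Rabs of ER to Golgi tethering, changed in smaller steps. Rab1a had 230 and 242 CPM in luminal virgin, 434 and 436 in luminal pregnant and 561 and 558 in luminal lactating libraries. Its log2 change in luminal cells from virgin was 0.88 ± 0.11 by pregnancy (adjusted p = 2.57e-05) and 1.24 ± 0.11 by lactation (adjusted p = 5.95e-07), the last turning to -0.12 (adjusted p = 0.323) with libraries scaled by total alone. As a share of the Rab pool per kb, Rab1a took 7.78% and 7.99% in luminal virgin, 12% and 11.6% in luminal pregnant and 12.4% and 11.9% in luminal lactating libraries, and 5.67% to 6.84% in basal libraries. Rab1b rose by 0.92 ± 0.09 in lactating against virgin luminal cells and Rab2a, which acts between ER and Golgi, by 0.68 ± 0.10, but with libraries scaled by total alone Rab1b lay at -0.44 and Rab2a at -0.68. Rab2a also lost its call with libraries scaled by total without the milk protein genes (0.20, adjusted p = 0.114). The 3 members that were lower at lactation than in virgin luminal cells were Rab43 (-1.06 ± 0.14), Rab33b (-0.86 ± 0.14), known for its part in autophagy, and Rab2b (-0.64 ± 0.15). Rab2b and Rab43 share 64.0% and 75.4% of their exon bases with other genes, so their counts are uncertain.

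The deposited data hold no binding or chromatin signal. Since several members moved together, promoter sequences of 300 bases (250 before and 50 after the start site) were read from RefSeq, build GRCm38.p6. Of the 59 members 48 had an entry, with 60 promoters in all, and Rab18 and Rab30 were not among them. The 4 shown are those of Rab1a, Rab1b and Rab3d, which were higher in lactating than in virgin luminal cells, and of Rab8b, which was lower. Capitals mark CCAAT boxes (CCAAT) and GC boxes (GGGGCGGGG) on either strand, and lower case is all other sequence, each written 5′ to 3′ on the strand of the gene.
Rab1a, chr11:20201162-20201461, plus strand: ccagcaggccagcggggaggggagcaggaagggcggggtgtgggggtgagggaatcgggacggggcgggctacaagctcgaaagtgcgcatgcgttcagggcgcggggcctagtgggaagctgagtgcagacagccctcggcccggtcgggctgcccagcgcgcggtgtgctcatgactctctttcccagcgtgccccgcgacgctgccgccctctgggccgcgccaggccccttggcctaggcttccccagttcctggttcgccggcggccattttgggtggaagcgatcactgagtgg
Rab1b, chr19:5106947-5107246, minus strand: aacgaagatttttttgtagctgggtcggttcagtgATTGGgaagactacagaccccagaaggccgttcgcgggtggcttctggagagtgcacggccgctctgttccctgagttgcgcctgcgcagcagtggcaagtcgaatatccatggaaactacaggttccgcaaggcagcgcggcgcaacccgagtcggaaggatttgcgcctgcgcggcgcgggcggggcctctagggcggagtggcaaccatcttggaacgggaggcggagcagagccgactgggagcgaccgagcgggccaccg
Rab3d, chr9:21918134-21918433, minus strand: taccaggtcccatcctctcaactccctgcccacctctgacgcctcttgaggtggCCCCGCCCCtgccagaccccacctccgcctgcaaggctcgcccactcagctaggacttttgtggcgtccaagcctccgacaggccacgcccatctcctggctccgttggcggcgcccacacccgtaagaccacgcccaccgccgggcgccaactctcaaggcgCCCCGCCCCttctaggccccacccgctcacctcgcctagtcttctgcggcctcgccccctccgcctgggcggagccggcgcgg
Rab8b, chr9:66919656-66919955, minus strand: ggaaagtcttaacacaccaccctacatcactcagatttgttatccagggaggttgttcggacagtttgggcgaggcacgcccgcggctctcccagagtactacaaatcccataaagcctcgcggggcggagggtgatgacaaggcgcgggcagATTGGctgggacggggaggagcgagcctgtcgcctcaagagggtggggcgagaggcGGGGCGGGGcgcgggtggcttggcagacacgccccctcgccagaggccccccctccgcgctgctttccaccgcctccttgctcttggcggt

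The median GC content of the 60 Rab promoters was 61.2%, and that of all 32851 promoters in the table was 52.7%. A GC box lay in 12 of the 60 (20.0%), against 11.4% of all promoters, and a CCAAT box in 26 (43.3%), against 37.4%. A STAT site (TTCNNNGAA), the letters bound by the STAT factors downstream of the prolactin receptor, lay in 5 of the 60 (8.3%), against 8.3% of all promoters. An E-box (CACGTG) lay in 6 (10%), against 7.2%, and the letters ACGTGG, the core bound by the unfolded protein response factor XBP1, in 7 (11.7%), against 8.3%. The longer ER stress element lay in 0 of the 60 and in 0.1% of all promoters. The 4 promoters shown hold no STAT site, E-box or ACGTGG. These are matches of letters in a short window, not binding sites.

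Among the Rabs of secretory vesicles, Rab3a and, unless libraries were scaled by total alone, Rab3d rose in luminal cells, while Rab3b, Rab27a and Rab27b fell. Rab3a, first known from synaptic vesicles, had 4.05 and 4.93 CPM in luminal virgin, 8.56 and 8.14 in luminal pregnant and 18.5 and 21.7 in luminal lactating libraries. The 3 stages did not overlap, and Rab3a was 4.47-fold higher at lactation than in virgin luminal cells (log2 change 2.16 ± 0.17, adjusted p = 2.44e-07), with 0.80 (adjusted p = 0.000946) under scaling by total alone. Rab3d, the Rab of exocrine secretory granules, had 26.7 and 26.4 CPM in luminal virgin, 35.4 and 37.7 in luminal pregnant and 65.3 and 68.4 in luminal lactating libraries. Its log2 change at lactation from virgin luminal cells was 1.33 ± 0.13 (adjusted p = 1.44e-06), but -0.03 (adjusted p = 0.852) with libraries scaled by total alone.

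Rab27b, which with Rab27a docks secretory granules at the plasma membrane, had 18.6 and 22.7 CPM in luminal virgin, 3.85 and 3.94 in luminal pregnant and 1.53 and 1.97 in luminal lactating libraries. It was 11.8-fold lower at lactation than in virgin luminal cells (log2 change -3.56 ± 0.24, adjusted p = 7.69e-08), and both steps were called. Rab27a had 4.73 and 5.54 CPM in luminal virgin, 2.15 and 1.58 in luminal pregnant and 2.14 and 2.20 in luminal lactating libraries. Its luminal change was -1.45 ± 0.25 by pregnancy (adjusted p = 0.000407), with 0.21 after it, which did not pass the threshold. Rab3b had 18 and 24 counts in the luminal virgin libraries, 0 and 1 in the luminal pregnant libraries and 2 and 0 in the luminal lactating libraries. With 1 count in the pregnant group against 42 in the virgin group, Rab3b was 31.1-fold lower by count (95% counting interval 5.29 to 1258), with an adjusted p of 0.0011 in luminal cells. At lactation it was 9.59-fold lower than in virgin luminal cells (2.49 to 81.8), a call that was lost without luminal lactating replicate 2 (adjusted p = 0.0715). Rab26 and Rab37 passed the threshold in no luminal stage comparison, at no more than 0.709 CPM in any luminal library.

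The sum of 5 fibroblast markers was 210 to 368 CPM in the luminal virgin libraries, 29.8 to 41.7 in the luminal pregnant libraries and 63.7 to 70.2 in the luminal lactating libraries. The sum of 5 endothelial markers was 88.7 to 117, then 20.3 to 28.7, then 54.0 to 55.3 CPM at these stages, and that of 7 leukocyte markers 7.46 to 9.43, then 18.3 to 20.7, then 8.11 to 13.8 CPM. No gene of these 3 lists was at 0 in any group. Dcn carried the fibroblast sum in luminal virgin libraries (346 and 170 CPM, against 7.17 and 7.15 in luminal pregnant libraries), while Col1a1 had 9.61 and 19.1 CPM in luminal virgin and 16.3 and 11.3 in luminal pregnant libraries. Dcn and all 5 endothelial markers were lower in both pregnant than in both virgin luminal libraries, as were Rab27a, Rab27b, Rab3b, Rab12, Rab23, Rab36 and Rab38, and the part of such cells in those falls was not tested.

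**Figure D3:**
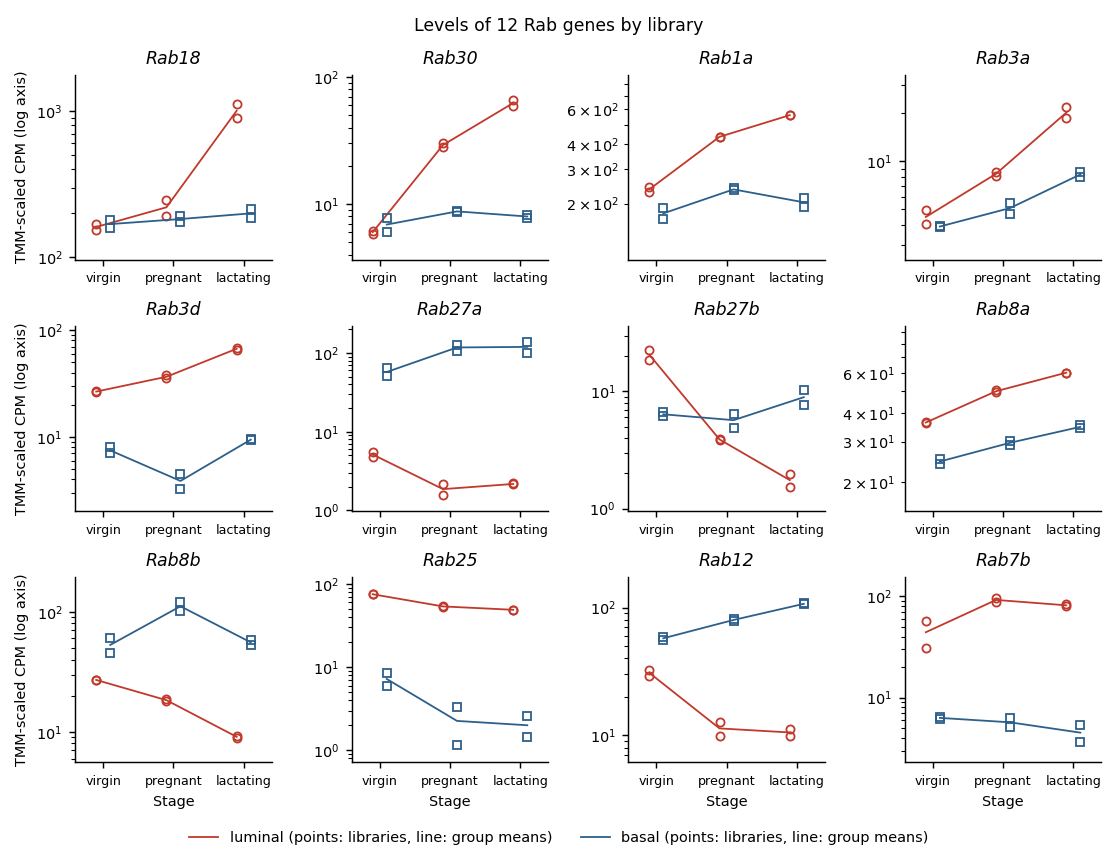
TMM-scaled CPM on a log axis of 12 Rab genes at the 3 stages, with luminal libraries as red circles, basal libraries as blue squares and lines through group means. Luminal Rab18 is 192 and 248 CPM at pregnancy and 900 and 1107 CPM at lactation, while luminal Rab27b falls at both steps.

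In polarised delivery to the plasma membrane, 2 of 8 Rabs were higher and 4 lower in lactating than in virgin luminal cells, where 26.7% of all genes were higher and 33.5% lower. Their median log2 change was -0.58, against -0.15 over all genes, and scaling by total alone gave 0 higher and 7 lower. The close relatives Rab8a and Rab8b, which carry cargo from the trans-Golgi to the surface, moved in opposite directions. Rab8a had 36.3 and 36.4 CPM in luminal virgin, 50.3 and 49.3 in luminal pregnant and 60.1 and 60 in luminal lactating libraries. Its change at lactation from virgin luminal cells was 0.72 ± 0.09 (adjusted p = 1.54e-05), but -0.64 with libraries scaled by total alone. Rab8b had 26.9 and 27.2 CPM in luminal virgin, 18.6 and 18.1 in luminal pregnant and 8.94 and 9.24 in luminal lactating libraries, a change of -1.57 ± 0.16 at lactation from virgin (adjusted p = 2.24e-06).

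Rab12, linked to transport to lysosomes and to recycling, had 32.7 and 29.0 CPM in luminal virgin, 9.85 and 12.8 in luminal pregnant and 11.2 and 9.85 in luminal lactating libraries. The fall came by pregnancy (-1.44 ± 0.13, adjusted p = 2.04e-06). Rab35, a Rab of the plasma membrane, fell at the other step, with 71.1 and 71.7 CPM in luminal virgin, 67.6 and 72.6 in luminal pregnant and 35.0 and 30.0 in luminal lactating libraries (lactating against pregnant -1.11 ± 0.11, adjusted p = 3.96e-06). Rab13, a Rab of tight junctions, was lower at lactation than in virgin luminal cells (-1.19 ± 0.21). Rab40b, a Rab with a ubiquitin ligase domain, was higher (1.61 ± 0.26), with 0.25 (adjusted p = 0.389) under scaling by total alone. Rab10, which carries GLUT4 in fat cells, lay between 192 and 206 CPM in all 6 luminal libraries, and its 3 luminal changes were between -0.03 and -0.01, though -1.39 at lactation from virgin with libraries scaled by total alone.

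At the recycling endosome, Rab4a, the Rab of fast recycling, was 25.0 and 23.7 CPM in luminal virgin, 50.4 and 54.1 in luminal pregnant and 40.7 and 44.5 in luminal lactating libraries. It rose by pregnancy (1.10 ± 0.11, adjusted p = 7.14e-06) and was -0.29 ± 0.11 after it (adjusted p = 0.0478). In lactating against virgin luminal cells 5 of the 8 recycling Rabs were lower and 1 higher, where 33.5% of all genes were lower and 26.7% higher. Their median log2 change was -0.38, against -0.15 over all genes. The lower ones were Rab17 (-1.02 ± 0.22), an epithelial Rab of transcytosis, Rab25 (-0.62 ± 0.24, adjusted p = 0.0416), the epithelial member of the Rab11 family, Rab11b (-0.50 ± 0.12), Rab4b (-0.45 ± 0.11) and Rab11a (-0.32 ± 0.11). The calls of Rab11a and Rab25 were lost with RLE size factors and with DESeq2, that of Rab25 also without any 1 of the luminal virgin or lactating libraries, and that of Rab11a without either luminal lactating library or luminal virgin replicate 2. Of the Rab4b exon bases 65.0% overlap another gene. Rab14 (119 to 138 CPM) and Rab15 (214 to 301 CPM) passed the threshold in no luminal stage comparison.

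Of the 7 early endosome Rabs, 4 were lower and 1 higher in lactating than in pregnant luminal cells, a comparison where 24.6% of all genes were lower and 23.7% higher. Their median log2 change was -0.30, against 0.00 over all genes, and scaling by total alone gave 6 lower and 0 higher. Rab31, which works between trans-Golgi and endosomes, had 4.36 and 3.86 CPM in luminal lactating and 13.0 and 14.3 in luminal pregnant libraries (log2 change -1.73 ± 0.15, adjusted p = 1.52e-06). Rab22a, a relative of it, had 25.4 and 21.3 against 43.6 and 48.4 CPM (-0.98 ± 0.12, adjusted p = 2.51e-05). Rab21, which carries integrins, changed by -0.52 ± 0.16 and Rab5a by -0.30 ± 0.10, the Rab5a call being lost with RLE size factors, with DESeq2, without luminal pregnant replicate 1 and without luminal lactating replicate 2. Rab5b had 68.3 and 57.7 CPM in luminal lactating and 28.9 and 35.2 in luminal pregnant libraries (0.98 ± 0.15, adjusted p = 0.000223), and shares 13.0% of its 50-base windows with other genes. Rab5c (98.8 to 120 CPM) passed the threshold in none of the luminal comparisons.

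Of 6 tested late endosome, lysosome and autophagy Rabs, 3 rose by pregnancy in luminal cells and none fell, where 21.8% of all genes were higher and 24.1% lower. Their median log2 change was 0.94, against -0.04 over all genes, and scaling by total alone gave 2 higher and 1 lower. Rab7, the Rab of late endosomes and lysosomes, had 96.8 and 95.7 CPM in luminal pregnant and 59.5 and 59.9 in luminal virgin libraries (0.69 ± 0.10, adjusted p = 9.13e-05). Rab7b had 87.7 and 96.3 CPM in luminal pregnant and 31.0 and 57.3 in luminal virgin libraries (1.06 ± 0.22, adjusted p = 0.00165), and Rab9, which returns cargo from late endosomes to the Golgi, 31.2 and 31.2 against 15.6 and 16.4 (0.97 ± 0.12, adjusted p = 3.65e-05). Rab7, Rab7b and Rab9 did not pass the threshold between lactation and pregnancy in luminal cells, where their log2 changes were -0.08, -0.18 and -0.06. Rab24, linked to autophagy, was lower at lactation than at pregnancy (-0.29 ± 0.10), and 62.4% of its exon bases overlap another gene. Rab42 passed the threshold in no luminal stage comparison. Scaling by total alone gave 0.19 (adjusted p = 0.134) for Rab7 at pregnancy against virgin and -0.75 at lactation from virgin. Rab39b was higher at lactation than in virgin luminal cells (2.34 ± 0.48, adjusted p = 0.00103), at no more than 1.45 CPM in a luminal library.

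By pregnancy, 2 of the 6 Rabs in the Golgi list, which leaves out Rab30, fell and 1 rose in luminal cells. Of the lysosome-related Rabs 2 of 3 fell and of the cilium Rabs 1 of 2, in a comparison where 24.1% of all genes were lower and 21.8% higher. With libraries scaled by total alone, these groups had 3 lower and 0 higher, 2 lower, and 2 lower. In lactating against virgin luminal cells, 4 of the 6 Rabs in the Golgi list were lower and 0 higher. Of the 7 early endosome Rabs 3 were lower and 1 higher there, and of the 6 tested late endosome Rabs 0 and 4. Among all genes 33.5% were lower and 26.7% higher in that comparison, and these counts are those with TMM scaling. Rab36 had 0.314 and 0.493 CPM in luminal pregnant and 2.94 and 2.03 in luminal virgin libraries (-2.62 ± 0.35, adjusted p = 5.75e-05). Its partial return at lactation (1.12 ± 0.43, adjusted p = 0.049) was not called with the replicate number as a block (adjusted p = 0.0621), with DESeq2 (0.0725) or with any single library outside the luminal virgin group left out. Rab23, known from Hedgehog signalling, had 2.15 and 2.27 CPM in luminal pregnant and 6.92 and 7.16 in luminal virgin libraries (-1.67 ± 0.16, adjusted p = 4.57e-06). Rab38, a Rab of melanosome formation, changed by -1.58 ± 0.45 and Rab19, found at the Golgi, by -2.09 ± 0.60, and both calls were lost without luminal pregnant replicate 2 (adjusted p = 0.103 for Rab38 and 0.1 for Rab19), that of Rab38 also without luminal virgin replicate 1 (0.0564). Rab44 changed by -1.80 ± 0.58 (adjusted p = 0.0218), a call lost without luminal virgin replicate 2 (adjusted p = 0.246), without luminal pregnant replicate 1 (0.147) and with DESeq2 (0.081). Rab32, a relative of Rab38, fell later, with 1.76 and 1.89 CPM in luminal lactating against 5.69 and 6.51 in luminal pregnant libraries (-1.74 ± 0.31, adjusted p = 0.000524). Rab6a, the main Rab of retrograde transport to the Golgi and ER, had 102 and 106 CPM in luminal lactating and 145 and 149 in luminal pregnant libraries (-0.50 ± 0.10, adjusted p = 0.00172). Rab34 (-0.76 ± 0.13) and Rab29 (-0.72 ± 0.24) were lower at this step as well. The cilium Rab28 had 29.0 and 30.2 CPM in luminal lactating and 20.5 and 19.7 in luminal pregnant libraries. Its raw counts were 380 and 398 at lactation and 457 and 399 at pregnancy, though the lactating libraries were larger. The direction of this Rab28 change thus turns with libraries scaled by total alone.

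In basal cells the calls ran mostly upward. Pregnancy against virgin moved 22 of 55 Rabs (18 up, 4 down), or 40%, where 30% of all genes were called (15.6% up, 14.4% down). Lactation against pregnancy moved 14 (12 up, 2 down), or 25.5%, against 33.1% of all genes (15.7% up, 17.4% down), and this count was 6 without basal pregnant replicate 1 and 8 without basal lactating replicate 2. Lactation against virgin moved 23 (21 up, 2 down), or 41.8%, against 47.5% of all genes (23.7% in each direction). The median log2 change of the 55 Rabs was 0.22, 0.12 and 0.31, against 0.00, 0.01 and 0.00 over all genes. Scaling by total alone gave 11 up and 5 down, 10 up and 2 down, and 17 up and 4 down. These 3 comparisons share libraries pairwise too.

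Of the secretory Rabs, Rab27a rose in basal cells by pregnancy. It had 107 and 128 CPM in basal pregnant and 50.8 and 63.9 in basal virgin libraries (1.03 ± 0.16, adjusted p = 0.00054), and 138 and 101 at lactation. Rab6b, the form of Rab6 known from neurons, had 84 and 72 counts in basal pregnant and 18 and 9 in basal virgin libraries (2.63 ± 0.42, adjusted p = 0.00064). Rab29, a Rab of the trans-Golgi that works with the kinase LRRK2, had 2.82 and 2.54 CPM in basal virgin, 4.65 and 6.72 in basal pregnant and 10.3 and 11.3 in basal lactating libraries. Its basal change at lactation from virgin was 2.00 ± 0.22 (adjusted p = 1.91e-05). Rab5b (1.44 ± 0.15), Rab11b (0.90 ± 0.11) and Rab12 (0.90 ± 0.12) were also higher in basal lactating than in basal virgin cells, as were Rab38 (1.89 ± 0.35), Rab40b (1.46 ± 0.25), Rab3a (1.08 ± 0.17) and Rab32 (1.07 ± 0.26), the Rab32 call being lost without basal lactating replicate 2.

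Other basal Rabs turned at pregnancy. Rab8b had 45.5 and 60.3 CPM in basal virgin, 121 and 101 in basal pregnant and 58.5 and 52.7 in basal lactating libraries, a change of 1.07 ± 0.13 by pregnancy (adjusted p = 0.000104) and of -1.0 ± 0.13 after it. Rab3d had 7.96 and 7, then 3.25 and 4.49, then 9.28 and 9.56 CPM at the 3 basal stages in order, a change of -0.96 ± 0.15 and then 1.29 ± 0.15. The basal fall of Rab25 by pregnancy (-1.65 ± 0.33, adjusted p = 0.00243) was from a low level, with 3.36 and 1.15 CPM in basal pregnant and 8.42 and 5.98 in basal virgin libraries. Beside these, the 5 fibroblast markers summed to 139 to 199 CPM in basal virgin, 544 to 715 in basal pregnant and 346 to 397 in basal lactating libraries, and the 5 endothelial markers to 220 to 358, then 73.5 to 93.5, then 83.6 to 97.1 CPM. The fibroblast sum moved with Dcn (54.2 and 89.0 CPM in basal virgin, 434 and 580 in basal pregnant and 316 and 271 in basal lactating libraries), while Pdgfra had 3.10 and 5.07, then 2.73 and 2.93, then 1.21 and 1.01 CPM. Their part in the basal changes was not tested.

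**Figure D4:**
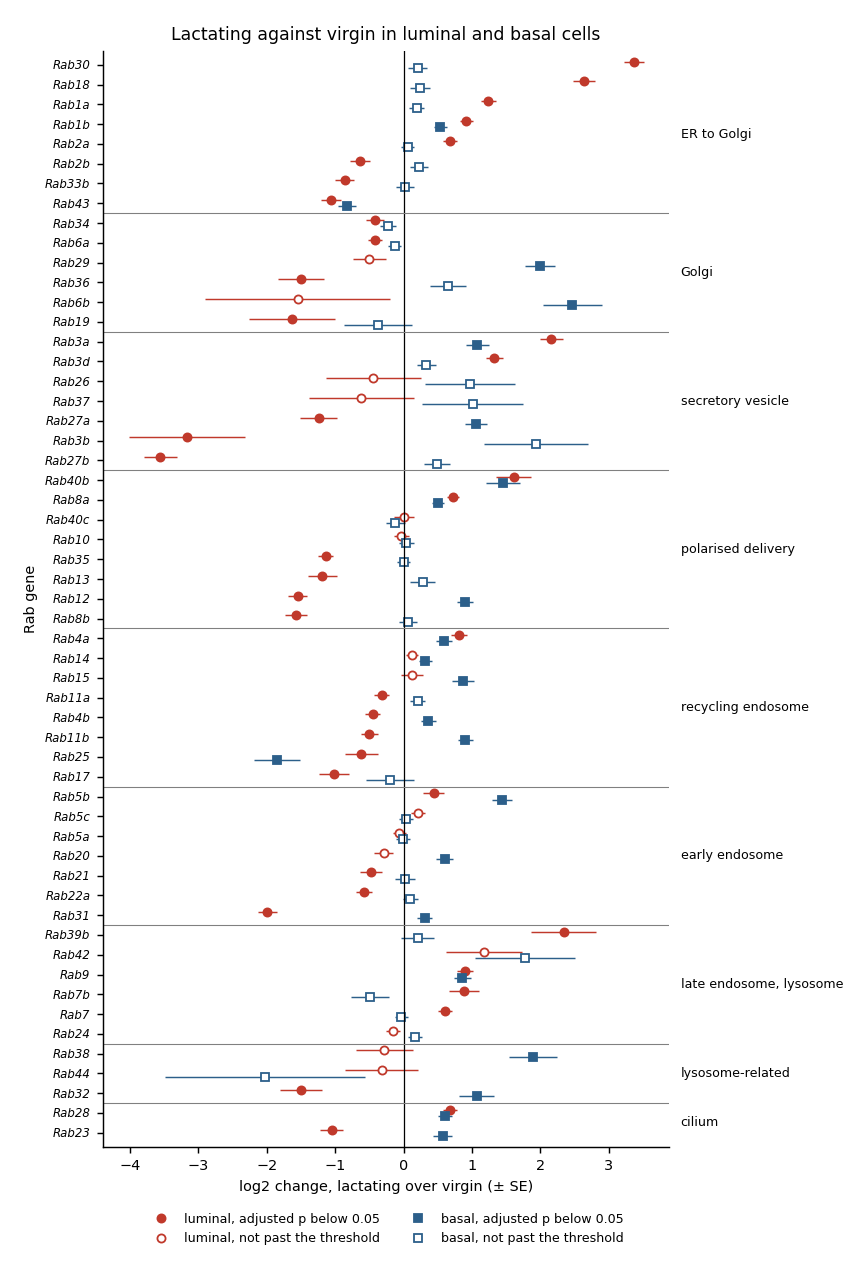
log2 change of lactating over virgin cells (x axis, ± SE) for the 55 tested Rab genes, in luminal cells as red circles and in basal cells as blue squares, filled where the adjusted p is below 0.05. Of the luminal changes 16 are called higher and 24 lower, and of the basal changes 21 higher and 2 lower.

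At the virgin stage 35 of 55 Rabs differed between luminal and basal cells (18 higher in luminal, 17 lower), or 63.6%, against 62.8% of all genes (31.2% higher, 31.5% lower). At pregnancy 42 differed (19 higher, 23 lower), or 76.4%, against 69.9% of all genes (33.9% higher, 35.9% lower). At lactation 44 differed (17 higher, 27 lower), or 80%, against 74.6% of all genes (35.4% higher, 39.2% lower). The shares lie near those of all genes. Scaling by total alone gave 9 higher and 39 lower at lactation.

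Rab25 and Rab17 marked the luminal side at the recycling endosome. Rab25 had 48.8 to 75.3 CPM in luminal and 1.15 to 8.42 in basal libraries, and was 10.4-fold, 23.4-fold and 24.4-fold higher in luminal cells at the virgin, pregnant and lactating stages. Rab17 had 16.2 to 40.1 CPM in luminal and 1.01 to 2.16 in basal libraries, with luminal over basal log2 differences of 4.45 ± 0.27, 4.04 ± 0.27 and 3.63 ± 0.29 at the 3 stages. The recycling Rab15 (2.08 ± 0.17, 1.74 ± 0.17 and 1.33 ± 0.16), the late endosome Rab7b (2.81 ± 0.25, 4.01 ± 0.26 and 4.18 ± 0.27) and the secretory Rab3d (1.83 ± 0.13, 3.24 ± 0.15 and 2.83 ± 0.14) were higher in luminal cells at each stage as well. Rab30 was higher in luminal cells at pregnancy (1.73 ± 0.13) and lactation (2.96 ± 0.14), and Rab18 at lactation (2.33 ± 0.16). Rab3b was higher in luminal cells in virgin mice (2.94 ± 0.66). Rab44 had 6 to 55 counts in luminal and at most 5 counts in basal libraries. By counts it was 47-fold higher in luminal than basal lactating cells (95% counting interval 7.76 to 1920) and 19.3-fold higher at pregnancy (3 to 809).

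Rab27a marked the basal side. It had 1.58 to 5.54 CPM in luminal and 50.8 to 138 in basal libraries, and was 11.1-fold, 62.5-fold and 54.8-fold lower in luminal cells at the virgin, pregnant and lactating stages. The 8 basal markers had a summed 331 and 397 CPM in the luminal pregnant and 34207 and 42422 in the basal pregnant libraries, and the part of basal RNA in the luminal Rab27a counts was not tested. Its relative Rab27b was higher in luminal cells in virgin mice (1.69 ± 0.19 luminal over basal) and lower at lactation (-2.35 ± 0.25). Rab12 (-0.90 ± 0.12, -2.82 ± 0.13 and -3.35 ± 0.14), Rab39b (-4.96 ± 0.36, -4.01 ± 0.33 and -2.83 ± 0.32), linked to neuronal disease in humans, and the early endosome Rab20 (-1.69 ± 0.13, -2.36 ± 0.14 and -2.58 ± 0.14) were lower in luminal cells at each stage. At pregnancy Rab38 was lower in luminal cells (-2.84 ± 0.42), and at lactation Rab31 was (-3.06 ± 0.14). Of the Rab20 exon bases 25.6% overlap another gene. Rab6b had 1 count in luminal lactating and 120 in basal lactating cells over both libraries, 71.5-fold lower by count (95% counting interval 12.6 to 2849).

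**Figure D5:**
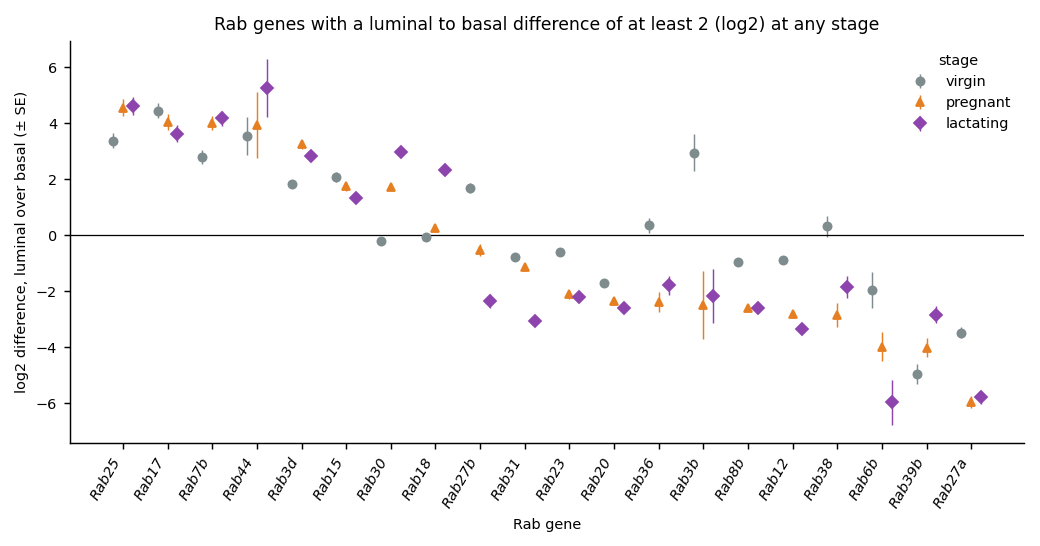
log2 difference of luminal over basal cells (y axis, ± SE) at the virgin, pregnant and lactating stages for the 20 Rab genes with an absolute difference of at least 2 at any stage, ordered by the value at pregnancy. Rab25, Rab17 and Rab7b are higher in luminal cells and Rab27a and Rab39b lower at all 3 stages, and Rab27b changes side.

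The difference between the luminal and the basal change was tested as well. For pregnancy against virgin it was called for 22 Rabs (8 higher and 14 lower in luminal), or 40%, against 30.7% of all genes (14% higher, 16.7% lower). For lactation against pregnancy it was called for 17 (3 higher, 14 lower), or 30.9%, against 36.2% of all genes (18.3% higher, 18% lower). Scaling by total alone gave 2 higher and 21 lower at pregnancy and 1 higher and 37 lower at lactation, and scaling by total without the milk protein genes 5 higher and 15 lower at pregnancy. At lactation RLE size factors gave 4 higher and 10 lower, and DESeq2 4 higher and 8 lower. At pregnancy the positive differences past 1 were those of Rab30 (1.93 ± 0.19), Rab3d (1.42 ± 0.20), Rab7b (1.20 ± 0.35) and Rab25 (1.16 ± 0.41), and the negative ones included Rab27a (-2.49 ± 0.29) and Rab8b (-1.63 ± 0.19), which fell in luminal and rose in basal cells. At lactation Rab18 (2.06 ± 0.21, adjusted p = 1.84e-05) and Rab30 (1.23 ± 0.19, adjusted p = 0.000307) were the positive differences past 1, that of Rab30 being 0.43 (adjusted p = 0.104) with libraries scaled by total alone, and Rab1a (0.58 ± 0.15, adjusted p = 0.00853) was the other positive call.

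The lists of genes that switch or bind Rabs changed in both directions. Of 31 tested genes in the GEF list, 14 were higher and 10 lower in lactating than virgin luminal cells. In the GAP list these were 11 and 11 of 31, and among effectors 15 and 15 of 45. In the GDI and escort cycle they were 2 and 2 of 8. In this comparison 60.2% of all genes were called. The counts of these lists were computed with TMM scaling only. The escort protein Chml was lower (-1.05 ± 0.16). Among the machinery genes named, the largest rises were in the GAP list, whose members were not tested for GAP activity. Tbc1d24 had 125 and 149 CPM in luminal lactating and 11 and 11.8 in luminal virgin libraries (3.59 ± 0.13, adjusted p = 6.7e-10). Tbc1d13, a GAP for Rab35, had 175 and 224 against 18.8 and 16.9 CPM (3.48 ± 0.14, adjusted p = 1.4e-09). Tbc1d8 (3.07 ± 0.14) and Tbc1d14 (2.50 ± 0.16), which binds Rab11, rose too, while Sgsm1 fell by pregnancy (-3.89 ± 0.30).

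Among GEFs, the 3 Rin genes, whose proteins activate Rab5 family members, were lower at lactation than in virgin luminal cells: Rin1 (-3.55 ± 0.33), Rin3 (-1.89 ± 0.24) and Rin2 (-1.20 ± 0.10). Dennd5b (-2.01 ± 0.30) and Dennd2c (-1.86 ± 0.25) were lower as well. Among effectors, Rph3al, which binds Rab3 and Rab27 on secretory granules, had 32.3 and 33.2 CPM in luminal lactating and 4.30 and 4.39 in luminal virgin libraries (2.91 ± 0.15, adjusted p = 6.93e-09). The Rab27 effector Sytl2 (-4.51 ± 0.49), Mical1 (-3.34 ± 0.34) and the Rab3 effector Rims2 (-2.89 ± 0.52) were lower. Sytl5, another Rab27 effector, had 0 counts in the luminal pregnant group and 66 in the luminal virgin group, and was at least 16.3-fold lower at pregnancy, taking 3 counts over the group as the floor. The other Sytl genes went the other way. Sytl1 had 56.8 and 60.2 CPM in luminal lactating and 32.6 and 34.1 in luminal virgin libraries. Sytl3 had 8.41 and 8.79 against 2.47 and 3.31, and Sytl4 8.10 and 8.79 against 4.37 and 4.29. Raw counts of Sytl1 and Sytl4 were lower at lactation, in larger libraries, so these rises turn with libraries scaled by total alone.

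Further partners of the rising members were chosen after their values were seen, from genes called with an absolute log2 change of at least 1. Partners that did not rise are thus left out, such as Mon1b, with 11.7 and 13.1 CPM in luminal virgin and 13.5 and 12.7 in luminal lactating libraries. Rab3gap2, counted in the GEF list, is a subunit of the complex that activates Rab18 and is named as a GAP for Rab3. It was higher at lactation than in virgin luminal cells (1.07 ± 0.09). Mon1a (1.43 ± 0.12), a subunit of the Rab7 exchange factor, and Tbc1d20 (1.45 ± 0.10), a GAP for Rab1, were higher too. So were the Rab1-binding tethers Uso1 (1.27 ± 0.11) and Golga5 (1.11 ± 0.10). With libraries scaled by total alone, Rab3gap2 lay at -0.29, Golga5 at -0.25 and Uso1 at -0.09, and Mon1a (0.07) and Tbc1d20 (0.09) did not pass the threshold.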

How the data were processed

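The authors deposited raw counts per Entrez gene for 27179 genes and 12 libraries. The submitters' processing notes list CASAVA 1.8.2, Subread 1.4.4, featureCounts and GRCm38 (mm10), with no role for each. How strand, multi-mapped reads and overlapping genes were handled is not given in the sources. Symbols came from RefSeq (GRCm38.p6) and exon overlap from GENCODE.

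Genes passing filterByExpr (minimum count 10) were scaled by TMM and tested with the quasi-likelihood F-test of edgeR 4.0.16 (R 4.3.3) in 1 fit of 6 group means, with Benjamini-Hochberg adjustment over 15969 genes and calls at an adjusted p below 0.05. The SE was derived from the log2 change and its F statistic. In comparisons of 2 groups, those with 3 or fewer counts are given as exact count ratios (95%), which cover counting error only. P-values measure only the spread between libraries of the same group, pooled over the 6 groups and drawn toward that of other genes. A luminal p-value thus also draws on the basal libraries. The code was checked on simulated counts.

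The Rab members, compartments, machinery and marker lists were chosen with earlier results of these data known. The text names called members with an absolute log2 change of at least 1 (the 10 largest of a comparison), 16 members chosen by role in luminal comparisons and the 5 largest genes of each machinery list. Other members were named after their values were seen. Alternatives were library size with and without milk protein genes, RLE factors, no filter, only the groups compared, DESeq2 1.42.0, replicate blocks and leaving out single libraries.

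Luminal and basal libraries with the same number deviated together (correlation 0.251 for virgin, 0.325 for pregnant and 0.156 for lactating mice, over 9197 genes). Pairs of groups from different stages, which cannot share a mouse, lay between -0.250 and 0.136. The same-stage values were the highest, but the 0.156 of lactating mice was near 0.136 and smaller in size than -0.250. Numbers were read as marking the mouse across cell types for the mouse block, which no label states and these correlations do not settle.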

Additional observations from a re-analysis of the deposited data

Results flagged for a closer look

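For these members the luminal and the basal change differed by a test of the difference itself, with an absolute log2 difference of at least 1 (edgeR's quasi-likelihood test, adjusted p below 0.05, 2 libraries a group). At pregnancy against virgin, the luminal minus basal difference was -5.42 for Rab3b, a fitted value that is no bound, since the luminal pregnant libraries held 0 and 1 counts and the basal pregnant libraries 3 and 5. It lost its call without basal pregnant replicate 2 (adjusted p = 0.065). It was -3.16 for Rab38, -2.74 for Rab36, -2.49 for Rab27a, -2.23 for Rab27b, -1.92 for Rab12, -1.63 for Rab8b and -1.51 for Rab23, and 1.93 for Rab30 and 1.42 for Rab3d. At lactation against pregnancy it was -2.21 for Rab32, -1.93 for Rab31, -1.81 for Rab27b and -1.65 for Rab29, and 2.06 for Rab18 and 1.23 for Rab30.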

How the results depend on the processing

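The direction of small luminal changes depends on the scaling. With libraries scaled by total alone, 19 named changes that were called with TMM or with this scaling had the opposite sign. At pregnancy against virgin in luminal cells these were Rab2a (-0.16), Rab6a (-0.43), Rab18 (-0.07), Rab3d (-0.05), Rab8a (-0.05) and Rab11a (-0.39). At lactation against pregnancy they were Rab1a (-0.49), Rab1b (-0.47), Rab2a (-0.52) and Rab8a (-0.59). At lactation against virgin they were Rab1a (-0.12), Rab1b (-0.44), Rab2a (-0.68), Rab3d (-0.03), Rab8a (-0.64), Rab7 (-0.75), Rab3gap2 (-0.29), Golga5 (-0.25) and Uso1 (-0.09). Under the other alternatives 0 such changes did. Changes called under neither setting could also turn, and with libraries scaled by total alone these were Rab5a at pregnancy against virgin (-0.26) and Rab27a at lactation against pregnancy (-0.65). Without milk protein genes in the library size they were Rab6a (-0.16) and Rab11a (-0.12) at pregnancy against virgin and Rab27a (-0.04) at lactation against pregnancy. Under RLE factors, DESeq2, fits of only the groups compared or single libraries left out, uncalled changes of Rab10, Rab5a, Rab7 and Rab3b turned. Of 173 named changes, 170 kept their side of the threshold with RLE factors, 158 with library size without milk protein genes and 167 with DESeq2. The luminal changes of Rab28 were not among these 173.

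The count of Rabs whose lactation change differed between cell types was 17, but 38 with libraries scaled by total alone and 11 to 19 with single libraries left out, the 11 without luminal lactating replicate 2. The basal lactating against pregnant count of 14 was 6 to 14 with single libraries left out, the 6 without basal pregnant replicate 1 and the 8 without basal lactating replicate 2. The other 9 counts stayed within 1.5 times of their value under the alternatives run. With the replicate number as a block, 172 of 173 named changes kept their side of the threshold, the exception being Rab36 at lactation against pregnancy (adjusted p = 0.0621), and with the mouse as a block 46 of 46 did. Depth limits Rab3b, Rab6b and Rab44, and Rab33a, Rab39, Rab3c and Rab9b could not be tested.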
